A study of Xenopus laevis with 14 samples.

Results

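hand2 and nkx2-5 are transcription factor genes best known from the embryonic heart, and here they were followed through embryonic ectoderm of the frog Xenopus laevis. They were chosen by symbol from a table of 19921 genes, as 2 heart genes that earlier work on these same values had found lower after neuralization, so their levels in that comparison are described without a test. Each symbol had 1 line in the table. The deposited gene models are those of Xenopus tropicalis. The RefSeq gene table of Xenopus_laevis_v10.1 lists 2 copies of each gene in Xenopus laevis (hand2.L and hand2.S, nkx2-5.L and nkx2-5.S). The 2 copies therefore have no lines of their own here, and how far reads of each copy were counted on the shared line was not tested.

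Hand2 is a basic helix-loop-helix factor needed in vertebrate embryos for the heart, the limb and the pharyngeal arches. Nkx2-5 is a homeodomain factor of the NK2 class, the vertebrate relative of Drosophila tinman, and one of the earliest marks of heart progenitors. BMP signals help to turn on both genes in the tissues where they are known, and excess retinoic acid is known to shrink the heart field in frog and fish embryos. Animal caps are pieces of the roof of the blastula that become epidermis when left alone, through their own BMP signals, and neural tissue when BMP is blocked by noggin.

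RNA was sequenced from 10 libraries, a pair for each of 5 groups. Wild-type caps were left untreated. The other 4 groups, called neuralized here, came from embryos injected at the 2-cell stage with noggin mRNA, and the caps received retinoic acid (RA). To these were added no further mRNA (noggin + RA), mRNA for prdm12 (a zinc-finger factor of spinal cord and hindbrain progenitors), for a fusion of prdm12 with the activating domain of VP16, or for its fusion with the repressing domain of engrailed (engR). Caps were cut at about stage 10, and the stage at harvest, the RA dose and any pooling of caps are not given in the sources used here. Noggin and RA were always given together, so their effects cannot be told apart. Injected RNA need not reach every cell of a cap. Replicate 1 of engR is titled as engR, but its treatment label gives VP16.

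Libraries held between 11986697 and 15893668 reads on genes. Levels are normalized reads, that is a gene's read count divided by 1 factor per library. They can be compared between libraries, but between genes they compare numbers of reads only and not amounts of RNA. The list sums below therefore weigh each gene by its reads. Values of prdm12 were 9.26 and 1.09 normalized reads in wild-type caps and 29.27 and 77.8 with noggin + RA. They were 159.71 or more in every library given a prdm12 construct. The summed level of 20 epidermal marker genes ran from 815381 to 915907 in wild-type caps and from 17603 to 58455 in neuralized caps. For 16 neural marker genes the sums were 1143 to 1218 and 41922 to 127897. Tissue labels and markers therefore pointed the same way.

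In wild-type caps hand2 had 1920 normalized reads in replicate 1 and 1466 in replicate 2. With noggin + RA it had 13.0 and 10.9, with prdm12 22.2 and 33.9, with prdm12-VP16 6.91 and 16.7, and with prdm12-engR 4.17 and 12.4. The wild-type libraries were high and every neuralized library was low, with a gap of 43.3-fold between the lower wild-type value and the highest neuralized value. In this table hand2 (ENSXETG00000016908) lies on scaffold GL172690.1 from 1281481 to 1285748, in a Xenopus tropicalis build that the sources used here do not name. No other listed gene overlaps it.

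nkx2-5 had 1253 and 684 normalized reads in the wild-type libraries. It had 1.63 and 2.51 with noggin + RA, 5.54 and 1.65 with prdm12, 1.15 and 2.95 with prdm12-VP16, and 2.09 and 0 with prdm12-engR. The pattern was again 2 high libraries and 8 low ones, with a gap of 123-fold between the nearest values. nkx2-5 (ENSXETG00000012729) lies on scaffold GL172866.1 from 616694 to 622463, with no overlapping gene in the table.

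**Figure D1:**
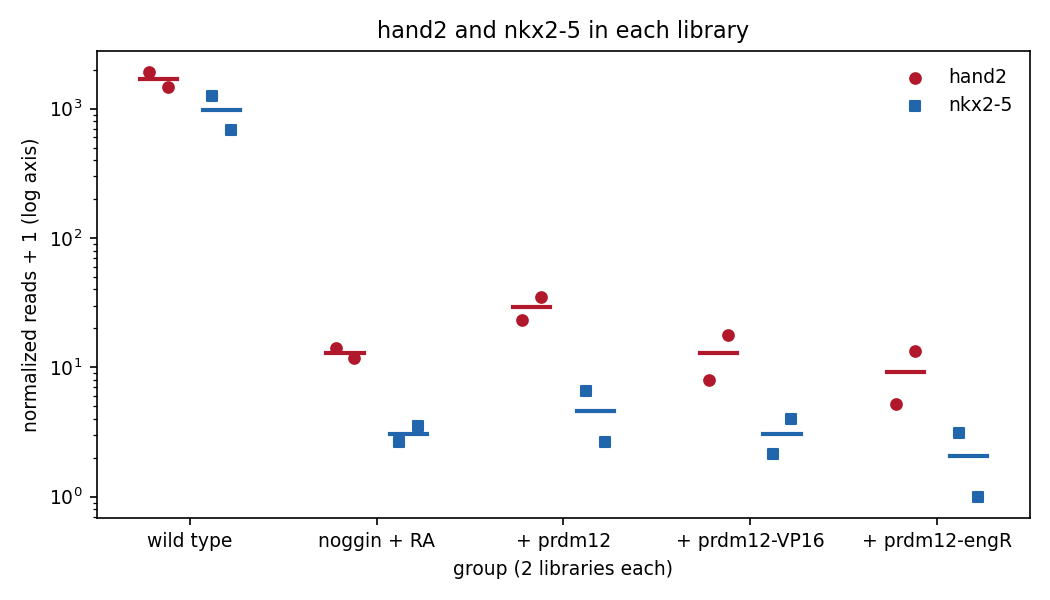
Normalized reads of hand2 (circles) and nkx2-5 (squares) in each of the 10 libraries, plotted as value + 1 on a log axis, with a short line at the mean of each group of 2 (also plus 1). Wild-type points of hand2 lie at 1466 and 1920 and those of nkx2-5 at 684 and 1253, and no neuralized library exceeds 33.9 for hand2 or 5.54 for nkx2-5.

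Between noggin + RA and wild-type caps, hand2 went from 1693 ± 321 to 11.9 ± 1.51 normalized reads (mean ± SD, n = 2 in each group) and nkx2-5 from 969 ± 403 to 2.07 ± 0.622. On the log2(value + 1) scale, which understates changes of low values, the differences were -7.02 ± 0.60 (SE) for hand2 and -8.25 ± 0.76 for nkx2-5. Counted in reads, wild-type caps had 140-fold more hand2 (2791 reads against 29, 95% counting interval 97.1 to 209) and 457-fold more nkx2-5 (1572 against 5, interval 195 to 1409). Such intervals cover counting error only. Because both genes were chosen for this fall, the intervals, the standard errors and the shares of genes below describe it and do not test it. A drop of at least the size seen for hand2 was shared by 249 of 12937 genes, or 1.92%, and one of at least the size seen for nkx2-5 by 120, or 0.928%. Of all genes tested, 35.3% had both noggin + RA libraries below both wild-type libraries, and in the test described further on 21.4% fell and 43.7% changed in either direction.

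In bulk RNA, fewer cells that transcribe a gene and less RNA per cell cannot be told apart. Several library measures also differed between wild-type and neuralized caps, not all of them as a clear split. Reads without a unique position made up 34.3% and 44.0% of records in wild-type caps and 23.8% to 34.2% in neuralized caps. The engR pair, at 34.1% and 34.2%, lay close to wild-type replicate 2 at 34.3%. The 10 most abundant genes took 15.8% to 16.9% of reads in wild-type caps against 8.15% to 9.54% in neuralized caps. Their part in the result was not tested. Replicate 1 was the higher of the wild-type pair for both genes, by 1.31-fold for hand2 and 1.83-fold for nkx2-5.

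The question for the remaining groups was whether a prdm12 construct moved either gene from its low level with noggin + RA. hand2 did not pass the test in any of the 3 comparisons, and nkx2-5, also not called, had too few reads there for the test to be informative. Here and below, genes were tested with limma across 12937 genes (mean of at least 10 normalized reads), with Benjamini-Hochberg adjustment and a threshold of 0.05. Both genes passed that filter on low values, nkx2-5 only through its wild-type libraries, since its mean over the 8 neuralized libraries was 2.19 normalized reads and that of hand2 15.0. The adjusted p-values of nkx2-5 below rest on 19 reads over those 8 libraries and do not show that its level stayed the same.

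With prdm12, hand2 was 28.0 ± 8.27 normalized reads against 11.9 ± 1.51 with noggin + RA. Both prdm12 libraries lay above both noggin + RA libraries, an order shared by 17.1% of all genes tested. The log2 difference was 1.14 ± 0.60 (95% interval -0.23 to 2.51, limma adjusted p = 0.943), and 0.162% of genes were called. By reads alone the ratio was 2.37 (65 reads against 29), with a counting interval of 1.51 to 3.81 that leaves out the spread between replicates. nkx2-5 was 3.60 ± 2.75 with prdm12 and 2.07 ± 0.622 without, and the libraries overlapped (log2 difference 0.45 ± 0.76, interval -1.30 to 2.2, limma adjusted p = 1). It rested on 8 and 5 reads.

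With prdm12-VP16, hand2 was 11.8 ± 6.92 normalized reads and nkx2-5 2.05 ± 1.27, and both overlapped noggin + RA. Log2 differences were -0.13 ± 0.60 for hand2 (interval -1.49 to 1.24, limma adjusted p = 0.994) and -0.06 ± 0.76 for nkx2-5 (interval -1.81 to 1.69, limma adjusted p = 1). In that comparison limma called 0 of 12937 genes, with 868 at an unadjusted p under 0.05, while edgeR called 0 and DESeq2 127.

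With prdm12-engR, hand2 was 8.27 ± 5.79 normalized reads and nkx2-5 1.05 ± 1.48, the lowest group means of both genes, overlapping noggin + RA. The log2 differences were -0.63 ± 0.60 (interval -2.0 to 0.73, limma adjusted p = 0.732) and -0.79 ± 0.76 (interval -2.54 to 0.96, limma adjusted p = 0.742), where 3.43% of all genes were called. Without engR replicate 1, whose labels disagree, they were 0.05 and -1.60. Of the 20 epidermal genes 5 rose with engR and none fell, where 2.41% of all genes rose. Genes are counted here by line, and krt12 is among the 5 with more than 1 line. tfap2c, an epidermal regulator, went from 29.1 ± 14.0 to 380 ± 170 (log2 difference 3.67, limma adjusted p = 0.0127). grhl2, another, went from 15.3 ± 9.06 to 162 ± 33.6 (3.42, limma adjusted p = 0.0191). The count was also 5 by edgeR, where 433 of all 12937 genes were called, and 8 by DESeq2, where 1169 were. It was 11 with the replicate number as a block, where that fit called 10.9% of all genes. It was 0 without either engR library, 2 without noggin + RA replicate 1 and 1 without replicate 2. Whether these differences and those of hand2 and nkx2-5 are unequal was not tested.

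Between constructs, hand2 with prdm12 (22.2 and 33.9 normalized reads) lay above both VP16 libraries and both engR libraries. The difference was -1.26 ± 0.60 for VP16 minus prdm12 (interval -2.63 to 0.10, limma adjusted p = 0.306), an order that 23.9% of genes shared, with 3.86% called. It was -1.77 ± 0.60 for engR minus prdm12 (interval -3.14 to -0.41, limma adjusted p = 0.686), an order that 12.8% of genes shared. In this last comparison limma called 0 genes, with 679 at an unadjusted p under 0.05, edgeR called 0 and DESeq2 178. For VP16 minus engR the difference of hand2 was 0.51 ± 0.60 (limma adjusted p = 0.636), with 12.1% of genes called. For nkx2-5 the same 3 differences were -0.51, -1.24 and 0.73 (each ± 0.76), with limma adjusted p of 0.784, 1 and 0.591, and its libraries overlapped in each.

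**Figure D2:**
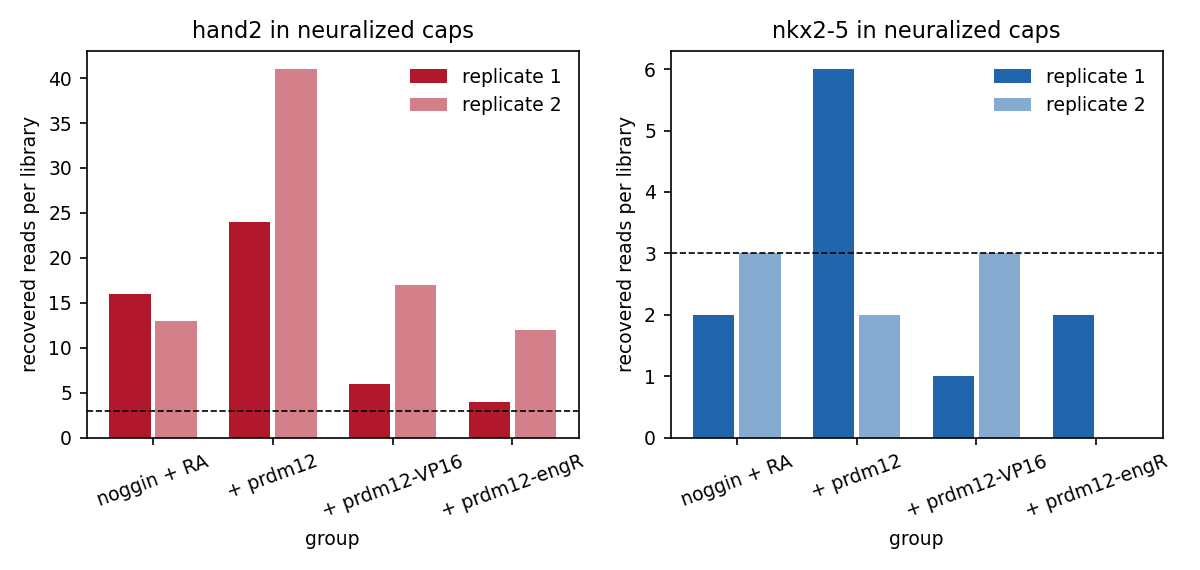
Recovered reads of hand2 (left) and nkx2-5 (right) in the 8 neuralized libraries, dark bars for replicate 1 and pale bars for replicate 2, with a dashed line at 3 reads. hand2 has between 4 and 41 reads in a library, the most in the prdm12 pair, and nkx2-5 between 0 and 6.

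Ordered by group mean, hand2 ran from wild type (1693) through prdm12 (28.0), noggin + RA (11.9) and VP16 (11.8) to engR (8.27). Neighbouring groups from noggin + RA downwards overlapped. The order for nkx2-5 was the same (969, 3.60, 2.07, 2.05 and 1.05), and each of the 4 neuralized groups overlapped its neuralized neighbours, while wild type overlapped none. Depth limits nkx2-5 most. In 7 of the 8 neuralized libraries it had 3 reads or fewer, 19 in all, against 133 for hand2. In engR replicate 2, with 0 reads, a level of up to 3.09 normalized reads, or 3 reads, is allowed. Against wild-type caps the engR pair had 2 reads to 1572, 908-fold (counting interval 251 to 7508).

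The rest of the heart programme was read from lists of named genes, chosen with earlier results of these data known. Some listed genes passed the filter only through the libraries where they are high. Among them are nkx2-3, msx2, ventx2.1 and dlx3, through wild type, and tbx5 and myod1, through neuralized caps. Their p-values between noggin + RA and wild type therefore describe the difference and are no independent support. The relatives of hand2 and nkx2-5 came first. nkx2-3, an NK2 gene also active in frog heart and pharynx, fell with them. It had 1322 and 1055 normalized reads in wild-type caps and 1.63 and 3.35 with noggin + RA (log2 difference -8.45 ± 0.52, limma adjusted p = 1.2e-05), and at most 6.91 in any neuralized library. nkx2-6, which the RefSeq table also calls XNkx2-10, had 15.9 and 17.5 in wild-type caps, 0.84 in noggin + RA replicate 2 and 0 in the other neuralized libraries. Its mean was too low for the test. nkx2-2, a gene of ventral neural progenitors, went the other way, from 0 and 1.09 to 50.4 and 46.9 (5.10 ± 0.61, limma adjusted p = 0.000279).

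The remaining relatives were scarce everywhere. hand1, the partner of hand2 in heart and lateral mesoderm, had between 0 and 6.18 normalized reads in the 10 libraries. nkx2-8 had between 0 and 6.61 and nkx2-4 between 0 and 11.5. nkx2-1, a thyroid, lung and forebrain gene, had a read in 1 library only, at 0.92. The high wild-type level was thus seen in hand2, nkx2-5 and nkx2-3, and at a lower read count in nkx2-6, but not in the other measured family members. How far reads of nkx2-5 and nkx2-3 could be exchanged in alignment was not tested.

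Of 18 tested heart regulators, 8 rose and 3 fell with noggin + RA (median log2 difference 0.64, against 0.02 over all genes), where 22.3% of all genes rose and 21.4% fell. Besides nkx2-3, those that fell were irx4, a ventricle gene, from 716 ± 170 to 19.6 ± 23.1 normalized reads (-5.82 ± 1.11, limma adjusted p = 0.0033), and isl1, a gene of heart progenitors and of neurons, from 614 ± 313 to 66.4 ± 37.5. The count of those that fell was 2 without replicate 1 of either wild type or noggin + RA. tbx5, a T-box gene of heart and forelimb, rose from 2.53 ± 2.04 to 96.1 ± 2.52 (4.91 ± 0.54, limma adjusted p = 0.000171). gata6, which works with Nkx2-5 in the heart and also marks endoderm, rose from 5.07 ± 4.07 to 98.6 ± 4.91 (4.22 ± 0.51). In wild-type caps 8 of the 25 regulators with a line in the table had 3 reads or fewer in each library, namely hand1, gata4, tbx5, tbx20, smyd1, hey2, zfpm2 and bmp10. hand2 and nkx2-5 were high in caps where these 8 heart regulators were near the detection limit. The rest of the 25 had more than 3 reads in at least 1 wild-type library. Besides nkx2-3, irx4 and isl1, these included tbx3 (3438 and 3166 normalized reads), hey1 (623 and 233) and tbx2 (405 and 224).

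Among heart muscle genes, in wild-type caps 6 of 19, namely myh6, myl2, myl3, myl7, ldb3 and csrp3, had 3 reads or fewer in each library, and tnnt2 had 10.6 and 4.38 normalized reads. The summed level of the list was 18137 to 18860 in wild-type caps and 6503 to 11309 in neuralized caps, with tpm1 and atp2a2, which many tissues use, the highest in wild-type caps. Of 11 tested genes 4 rose and 3 fell (median 0.53), where 22.3% of all genes rose and 21.4% fell, or 3 and 2 without any 1 library of wild type or noggin + RA. mybpc3, a thick filament protein gene, went from 10.6 and 7.66 to 1081 and 176, and myh6, an atrial myosin gene, from 3.97 and 3.28 to 58.5 and 159. actc1 rose from 79.4 and 149 to 2850 and 1616 (4.29 ± 0.49, limma adjusted p = 0.000213). Among those that fell was tpm1, from 5594 ± 1125 to 709 ± 87.7 (-2.97 ± 0.26, limma adjusted p = 5.83e-05). The list did not move as one. myl2 and myl7, light chain genes, were scarce in every library, at 6.18 normalized reads or fewer, while the troponin gene tnni3 had 15.9 and 19.7 in wild-type caps and 3.25 and 8.37 with noggin + RA.

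Of 19 tested genes of the BMP pathway, 12 fell and 1 rose (median -2.90), where 21.4% of all genes fell and 22.3% rose. msx2, a homeobox gene induced by BMP, went from 2941 and 3707 normalized reads to 1.63 and 8.37 (-9.38 ± 0.67, limma adjusted p = 2.38e-05), and bambi, a decoy receptor induced by BMP, from 7394 and 4183 to 20.3 and 27.6 (-7.81 ± 0.52, limma adjusted p = 1.86e-05). szl fell by 6.18 and ventx2.1 by 5.9 on the log2 scale. The ligand bmp4 had 3559 ± 434 and 1495 ± 1064 and did not pass (limma adjusted p = 0.107).

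Hand2 acts in the pharyngeal arches below endothelin signals and beside Dlx factors. Of 14 other genes of that list tested, 7 fell and 2 rose (median -4.17), beside the same shares of all genes. The lists share genes, so their counts are not separate results. Of those that fell here, dlx3 and tfap2a are also in the epidermal list, dlx3 in the cement gland list and msx1 in the BMP list. Likewise gata5 and gata6 are risers of both the heart and the endoderm list, and foxc2 of the heart and the mesoderm list. The distal-less genes dlx3 (890 ± 76.1 to 0.42 ± 0.594) and dlx5 (3801 ± 592 to 44.1 ± 44.6) fell, as did tfap2a (3194 ± 63.1 to 70.6 ± 72.6), a crest and epidermis factor, while alx1 rose (3.08 ± 1.26 to 319 ± 177). The count of risers was 1 without wild-type replicate 1, either noggin + RA library or either engR library. Levels of the ligand gene edn1 were 150 and 47.1 in wild-type caps and 58.5 and 0 with noggin + RA, and did not pass (limma adjusted p = 0.201). The endothelin receptor gene ednra had 807 ± 711 and 152 ± 91.1 (limma adjusted p = 0.132).

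Markers of other tissues that a cap could hold were read beside these, and against the 22.3% of all genes that rose and the 21.4% that fell. Of 10 lateral plate, blood and vessel genes 2 rose and 1 fell (median 0.91), osr1 rising from 0.66 ± 0.933 to 544 ± 5.73 and gata2 falling from 557 ± 95.6 to 19.6 ± 14.8. Those 2 risers are near the share of all genes. The count was 1 without either wild-type library or noggin + RA replicate 1, and 4 with the replicate number as a block. That blocked fit called 58.3% of all genes in either direction. Of 4 early mesoderm genes 3 rose (median 3.66), with myod1, the muscle regulator, at 0 and 1.09 in wild-type caps and 238 and 264 with noggin + RA. Of 11 endodermal genes 8 rose and 1 fell (median 2.99). The 1 that fell, cdx2, was not called without wild-type replicate 1 or noggin + RA replicate 2. Of 4 cement gland genes 3 fell (median -7.12), agr2 falling from 3733 ± 72.7 to 8.69 ± 3.1.

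The summed mesoderm list was 91.9 to 131 in wild-type caps and 391 to 1242 in neuralized caps, and 5 of its 12 genes, myod1 and myf5 among them, had 3 reads or fewer in each wild-type library. The endoderm sums were 842 to 967 and 3315 to 25390, with 8 of 15 genes at 3 reads or fewer in wild-type caps, including the endoderm regulator sox17a. Single markers went the other way from these sums. wnt8a, a mesodermal signal, had 11.9 and 25.2 normalized reads in wild-type caps and at most 6.18 in neuralized caps, eomes, a mesendoderm regulator, had 6.62 and 8.75 and at most 4.13, and cdx2 fell as described. In the mesoderm sums foxc2, chrd and myod1 were the most abundant genes with noggin + RA. Cement gland sums, at 4806 to 6000 and 21.5 to 156, moved with the 2 genes. So did the epidermal list, in which 19 of 20 lines fell and 1 rose (median -5.86). The riser was a line of krt18 (1527 ± 551 to 6090 ± 2076), whose other line fell (307 ± 22.5 to 1.24 ± 0.559). The part of any of these tissues in the levels of hand2 and nkx2-5 was not tested. Of 15 neural genes 14 rose (median 6.78), neurod4 from 6.82 ± 3.45 to 1924 ± 52.8.

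**Figure D3:**
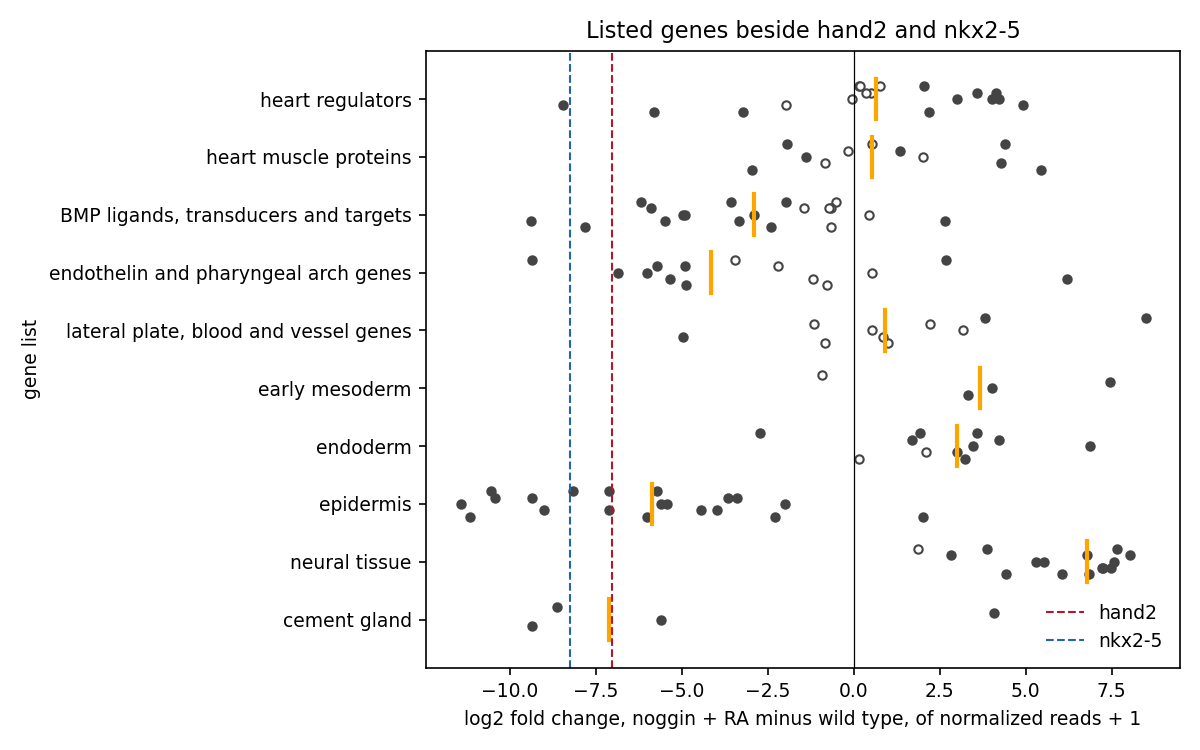
Log2 difference between noggin + RA and wild-type caps (normalized reads + 1) for the tested genes of 10 lists, 1 point per gene, filled where limma's adjusted p was under 0.05, with the list median as a bar. Dashed lines mark hand2 at -7.02 and nkx2-5 at -8.25, drawn for orientation only, since both were chosen for their fall in this comparison. List medians run from -7.12 (cement gland) to 6.78 (neural tissue).

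Of the 18 tested heart regulators, none passed against noggin + RA with prdm12, VP16 or engR (2, 2 and 5 at an unadjusted limma p under 0.05, none by edgeR, and 2, 0 and 4 by DESeq2). Over all 12937 genes, 828, 868 and 1983 were under that unadjusted p. Over the same genes edgeR called 23, 0 and 433, and DESeq2 250, 127 and 1169. Blocking on replicate number, limma called 3 regulators with engR, where that fit called 10.9% of all genes. VP16 against prdm12 had 3 lower, isl1, gata4 and gata6, where 3.11% of all genes were lower. With the block 6 were lower, where 16.4% of all genes were called in either direction. VP16 against engR had isl1, gata4, gata6 and foxc1 lower and tbx2 higher, where 12.1% of all genes were called, or 9 regulators with the block, where 29.1% were. gata6 was 319 ± 19.2 with prdm12 and 40.6 ± 13.4 with VP16 (log2 difference -2.98, limma adjusted p = 0.0241), and isl1 475 ± 24.0 and 26.5 ± 29.3 (-4.72, limma adjusted p = 0.0299). The calls in VP16 against prdm12 depend on single libraries. None of the 3 genes was called without either prdm12 library, either engR library or VP16 replicate 1, only gata6 was called without either wild-type library, and gata6 and isl1 were without either noggin + RA library. gata4, the partner of Nkx2-5 in heart gene activation, had 8.31 and 19.8 normalized reads with prdm12 and 0 and 0.98 with VP16. It passed the filter only through the prdm12 and engR libraries (17.7 and 41.2 with engR). Its calls in the VP16 comparisons therefore describe the difference and are no independent support. Of the 11 tested heart muscle genes, actc1 alone passed in any construct comparison. It was lower with engR than with noggin + RA, at 386 ± 63.4 against 2233 ± 873 (log2 difference -2.48, limma adjusted p = 0.0354). In that comparison 3.43% of all genes were called. edgeR called 1 heart muscle gene there, DESeq2 4, and limma with the block 4, of which 3 were higher and 1 lower. Over all 12937 genes edgeR called 433 there, DESeq2 1169 and the blocked fit 10.9%.

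Genes most like each member were found by the root mean square difference between centred log2(value + 1) profiles over the 10 libraries, among 12101 genes with a symbol. Nearest to nkx2-5 was bambi (0.604 log2 units), followed by the kinase gene PTK6 (0.708), a gene annotated as similar to X-epilectin (0.729), nkx2-3 (0.755), paqr5 (0.757) and the chloride channel gene ano1 (0.804). Nearest to hand2 were the protease gene tmprss11f (0.589), plekhb2 (0.602), LRRD1 (0.622), syt15 (0.636), tp53i3 (0.719) and dthd1 (0.723). hand2 itself ranked 22 in likeness to nkx2-5, and nkx2-5 ranked 58 in likeness to hand2, at 1.03 log2 units. All 12 of these profiles consist of a high wild-type pair and 8 low libraries, so the measure turns mainly on the size of that step and on a few reads in the low libraries.

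**Figure D4:**
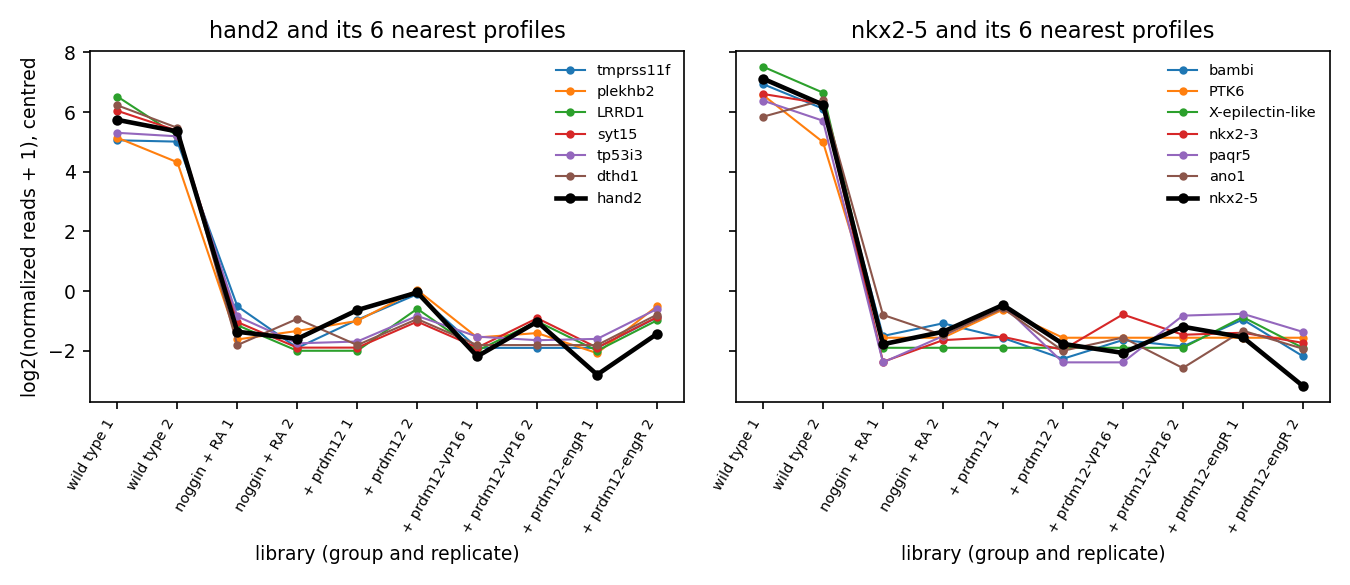
Centred log2(normalized reads + 1) across the 10 libraries for hand2 (left, black) and nkx2-5 (right, black) with the 6 genes nearest to each. Every line is high in the 2 wild-type libraries and low in the other 8, and in engR replicate 1 (hand2) and replicate 2 (nkx2-5) the black line dips below its neighbours.

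Genes next to the pair on their scaffolds did not share the size of the change. The 3 listed genes on each side of hand2 included fbxo8 (536 and 278 normalized reads in wild-type caps, 158 as the median of neuralized libraries) and sap30 (67.5 and 126, median 123), at distances of 39384 to 267813 bp over the 6 genes. Of the 5 tested, fbxo8 alone passed (log2 difference -1.11 ± 0.34, limma adjusted p = 0.03). With noggin + RA against wild type, 43.7% of all genes were called and 21.4% fell. Beside nkx2-5, bnip1 fell by 1.66 ± 0.27 on the log2 scale (limma adjusted p = 0.00143) and atp6v0e1 by 3.52 ± 0.49 (limma adjusted p = 0.000614). stc2, the nearest gene on the other side, had 26.5 and 9.85 in wild-type caps and a neuralized median of 25 (limma adjusted p = 0.764). It did not pass, and neither did c5orf41 (limma adjusted p = 0.636) or cpeb4 (limma adjusted p = 0.183). These neighbours were picked by position, after the levels of hand2 and nkx2-5 were known.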

How the data were processed

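The authors deposited a normalized signal per gene, whose values behave as whole reads scaled by a single number for each library. In each library 100% of values below 500 reads came out as whole reads on that basis, to within 0.05 reads. The submitters' processing notes list HOMER, edgeR, Bowtie and Bowtie2 with no role for any of them. The sources used here give neither the counter nor its settings nor the build. Per the labels' protocols the kit leaves strand unmarked. The 5 lines of special counters were left out. Wild-type columns carry a code and were matched because the other 8 columns name their construct. Nothing says that replicates came from separate cultures, and p-values then reflect only how far these samples spread, which may be technical.

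limma 3.58.1 in R 4.3.3 was fitted with an intensity trend to log2(value + 1) of the 12937 genes whose mean reached 10, over all 10 libraries, group as the only term (5 residual and 3.17 prior degrees of freedom), two-sided. It was tested on simulated data drawn without the replicate pairing described below, so that test does not cover the pairing. edgeR 4.0.16 and DESeq2 1.42.0 were run on recovered reads as alternatives. Counting intervals are exact, at 95%. The replicate 2 minus replicate 1 difference of one group correlated with that of another. Over genes, r was 0.222 to 0.251 in pairs with wild type and 0.514 to 0.791 among neuralized groups. So the numbers were taken to pair the libraries, from the data and not from the labels. The main fit leaves the pairing out, and the block is an alternative. For noggin + RA against wild type the block raised the genes called from 43.7% to 58.3%. BMP pathway genes were then 16 lower and 1 higher, and arch genes 10 lower and 3 higher.

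The 2 genes and the lists were chosen with earlier results of these data known. From each list, up to 4 called genes with the largest change after noggin + RA may be named, and all relatives of the 2 genes. Any other gene named (for low or high counts, for not passing, in the construct comparisons or by position) was chosen after its values were seen. Some listed genes are not reported here by name. ChIP peaks were not used, since no gene positions of their build were used here.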

Additional observations from a re-analysis of the deposited data

How the results depend on the processing

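The 6 comparisons with a test were repeated with alternatives in limma, edgeR and DESeq2. hand2 passed the threshold in none of those that kept both libraries of each compared group. Its lowest limma adjusted p was 0.0918, in VP16 against engR after quantile normalization. nkx2-5 also passed in none. It entered the test only through its wild-type libraries, and its 19 neuralized reads were too few for that to be informative. With the replicate number as a block, the adjusted p of hand2 was 0.411 for prdm12, 0.931 for VP16 and 0.47 for engR against noggin + RA, and the pairing changed no call of either gene. Small differences changed sign. For VP16 against noggin + RA hand2 was 0.18 after quantile normalization and 0.01 in DESeq2, and nkx2-5 was 0.23 after quantile normalization, 0.02 in edgeR and 0.03 in DESeq2. For VP16 against prdm12 nkx2-5 was 0.21 after quantile normalization. Leaving out 1 library at a time gave, against noggin + RA, -0.71 to 0.46 (hand2, VP16), -1.32 to 0.05 (hand2, engR), -0.20 to 1.11 (nkx2-5, prdm12), -0.50 to 0.38 (nkx2-5, VP16) and -1.60 to 0.02 (nkx2-5, engR). It gave -1.17 to 0.14 for nkx2-5 in VP16 against prdm12, and in VP16 against engR -0.18 to 1.19 for hand2 and -0.08 to 1.54 for nkx2-5. The cause was not tested. The difference of nkx2-5 between noggin + RA and wild-type caps moved to -7.26 with a pseudocount of 4, which shrinks low values by construction. The fit of the 8 neuralized libraries alone was added after the data were seen and called neither gene. With few reads, depth limits nkx2-5 in neuralized caps.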

Other observations

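Some heart list genes differed between replicate numbers in all 4 neuralized groups. mybpc3 had 1081, 1063, 623 and 585 normalized reads in replicate 1 with noggin + RA, prdm12, VP16 and engR, and 176, 90.0, 103 and 156 in replicate 2. irx4 went the other way, with 3.25, 20.3, 1.15 and 33.4 in replicate 1 and 36.0, 59.5, 9.82 and 57.7 in replicate 2. hand2 had no such order in common, being higher in replicate 1 with noggin + RA and in replicate 2 in the 3 construct groups. These genes were picked after their values were seen, and what the replicate numbers mark is not given in the labels.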
